A study of Mus musculus with 20 samples.

Results

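Prdm1, which encodes the transcriptional repressor Blimp-1, and 9 other genes for factors that set the fate of an activated T cell were followed in CD8+ T cells given interleukin-21 or a designed mimic of it. The 10 genes were Prdm1, Bcl6, Batf, Irf4, Irf8, Id2, Id3, Zeb2, Bach2 and Tox, picked by symbol as a fixed list out of 23992 gene symbols in the tables, each represented by its longest transcript. The list was chosen with earlier results of these data known, so its shares and medians beside those of all genes are descriptions. All 10 passed the filter on low counts in both experiments. CD8+ T cells came from the spleens of wild-type C57BL/6J mice aged 6 to 8 weeks, were activated for 48 h with plate-bound anti-CD3 (2 µg/mL) and soluble anti-CD28 (1 µg/mL), and were rested overnight. They were then cultured for 24 h without cytokine (unstimulated), with murine IL-21 (mIL-21) or with 21h10, a protein designed by computation to act on the IL-21 receptor. Since every group, the unstimulated one included, had been activated, the comparisons concern cytokine added to T cells that had already seen anti-CD3 and anti-CD28. Experiment 1 held unstimulated cells and both cytokines at 100 pM and 1 nM, while experiment 2 had separate unstimulated cells and both cytokines at 10 nM and 100 nM, with duplicate libraries in each of the 5 groups of an experiment and 20 libraries in all. The labels call the native cytokine WT, which was read as mIL-21 because the protocol in the labels names no other cytokine besides 21h10.

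IL-21 signals through its own receptor chain and the common gamma chain to phosphorylate STAT3, which binds DNA at the motif TTCNNNGAA. Blimp-1 drives terminal effector differentiation in CD8+ T cells and plasma cell differentiation in B cells, whereas Bcl6 is a repressor that favours memory precursors and follicular programs, and each protein is known to repress the gene of the other. Batf, an AP-1 factor, pairs with Jun proteins and with Irf4 or Irf8 on composite DNA sites that are opened by T cell receptor signals. Id2 and Id3 keep E proteins from binding DNA and mark effector and memory-prone CD8+ T cells, respectively. Zeb2 acts downstream of T-bet in terminal effector cells, Bach2 restrains effector differentiation by occupying AP-1 sites, and Tox maintains exhausted T cells.

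The windows of 250 bases upstream of 4 annotated start sites of Prdm1, Bcl6 and Irf8 are shown. Prdm1 and Bcl6 rose with all 8 treatments. Irf8 rose with all 4 treatments of experiment 1 and fell with all 4 of experiment 2. Id2 also rose with all 8 treatments, but its window, which held neither of the motifs marked below, is not shown. Sequences were taken from the RefSeq promoter table (build GRCm38.p6), which held 9 of the 10 genes (no entry for Tox), and are written 5′ to 3′ on the strand of the gene with matches to TTCNNNGAA (the STAT motif) or TGANTCA (the AP-1 motif) in capitals.
Prdm1, minus strand, chr10:44458749-44458998: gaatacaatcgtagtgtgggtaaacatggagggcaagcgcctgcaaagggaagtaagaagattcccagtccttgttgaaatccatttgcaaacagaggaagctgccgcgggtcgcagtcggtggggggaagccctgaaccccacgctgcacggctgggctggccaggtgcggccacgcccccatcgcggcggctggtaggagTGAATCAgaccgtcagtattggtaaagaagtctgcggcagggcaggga
Bcl6, start site 1, minus strand, chr16:23988853-23989102: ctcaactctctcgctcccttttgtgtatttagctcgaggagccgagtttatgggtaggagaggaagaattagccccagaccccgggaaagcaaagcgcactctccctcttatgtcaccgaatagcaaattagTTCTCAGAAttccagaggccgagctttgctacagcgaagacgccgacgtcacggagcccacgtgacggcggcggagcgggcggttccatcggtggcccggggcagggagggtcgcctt
Bcl6, start site 2, minus strand, chr16:23981284-23981533: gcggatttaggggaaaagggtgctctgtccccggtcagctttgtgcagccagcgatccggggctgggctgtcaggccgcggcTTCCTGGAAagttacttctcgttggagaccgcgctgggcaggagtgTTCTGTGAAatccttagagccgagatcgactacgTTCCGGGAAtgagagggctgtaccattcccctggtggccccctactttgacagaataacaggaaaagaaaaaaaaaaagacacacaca
Irf8, start site 1, plus strand, chr8:120736108-120736357: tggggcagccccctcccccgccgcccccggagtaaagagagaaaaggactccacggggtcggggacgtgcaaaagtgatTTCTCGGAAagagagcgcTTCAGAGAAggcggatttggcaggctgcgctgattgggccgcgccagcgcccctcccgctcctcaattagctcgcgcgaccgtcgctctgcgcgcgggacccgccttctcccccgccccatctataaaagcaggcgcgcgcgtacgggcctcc
The first window of Bcl6 held 1 match to the STAT motif, TTCTCAGAA, and the second, inside the gene, held 3, TTCCTGGAA, TTCTGTGAA and TTCCGGGAA. The window of start site 1 of Irf8 held 2, TTCTCGGAA and TTCAGAGAA. That of its start site 2, which is not shown, held no match to this motif. Of 32851 upstream windows of the same length, 7.02% held at least 1 match to this motif on either strand, 0.317% at least 2 and 0.0274% at least 3. The window of Prdm1, which lies before a start site inside the span of the gene, held no match to the STAT motif. It held 1 match to the AP-1 motif, TGAATCA, 48 to 42 bases upstream, and 6.75% of all windows held an AP-1 match. Among the remaining genes, Bach2 held 1 STAT match. Zeb2 held 1, the same TTCTGTGAA, in each of 2 overlapping windows and 2 AP-1 matches in another. Batf, Irf4, Id2 and Id3 held neither. These windows of Bach2 and Zeb2 lie inside the span of the gene. The 2 overlapping windows of Zeb2, and that of Id3, lie wholly in annotated exons. No window of these genes held the interferon response motif (2.98% of all windows). AGNGAAAG, a Blimp-1 motif, was matched in the window of Bach2 and in the 2 overlapping windows of Zeb2 (7.30% of all). CANCTG, a form of the E box, was matched in the windows of Prdm1, Batf, Id2 and the second start site of Irf8 (44.8% of all). Other forms of the E box were not searched. No motif overlapped another in these windows, a match is a description of the sequence and not a measured binding site, and binding was not measured.

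Reads on genes came to 36824740 to 94070730 per library in experiment 1 and 27072917 to 43300094 in experiment 2, and the biological coefficient of variation was 4.32% and 8.80%, so that smaller differences could be called in experiment 1. Levels within a gene are given as TMM-scaled CPM, read counts relative to the size of the library, for duplicates 1 and 2 in that order. Levels of different genes are compared only as RPKM, reads per kilobase of transcript relative to the mapped reads of the library. Of the markers of the labelled cells (Cd3d, Cd3e, Cd3g, Cd8a, Cd8b1 and Lck), the summed level was 1079 to 1661 RPKM over all 20 libraries. Those of NK cells, of CD4 and regulatory T cells and of erythroid cells summed to at most 1.10 RPKM in any library. B cell markers summed to 3.09 to 10.5 RPKM, nearly all of it Cd79b, with Ms4a1, Cd79a and Pax5 near 0, and plasma cell markers to 23.4 to 65.3 RPKM, nearly all of it Xbp1. Myeloid and dendritic markers rose from 0.621 to 1.10 RPKM in unstimulated libraries to 3.15 to 16.8 RPKM in treated ones, almost all of it Itgam, which activated CD8+ T cells also carry, while Lyz2, Csf1r, Cd14 and Siglech were at or near 0. Of these markers, 3 were tested in experiment 1. All 3 were called higher with 100 pM 21h10, 1 nM mIL-21 and 1 nM 21h10, so Itgam did not rise alone, and 1 with 100 pM mIL-21. In experiment 2, 1 of the 3 tested was called higher with each treatment. Of all genes tested, 77.7% to 81.6% were called in these comparisons of experiment 1 and 46.2% to 50.8% in those of experiment 2. In bulk RNA, fewer cells that express a gene and less RNA per cell cannot be told apart. The study describes RNA-seq replicates as coming from separate tissue preparations or donors, but the labels do not say which mice or cultures the duplicates are, so the p-values measure the spread between these samples.

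**Figure D1:**
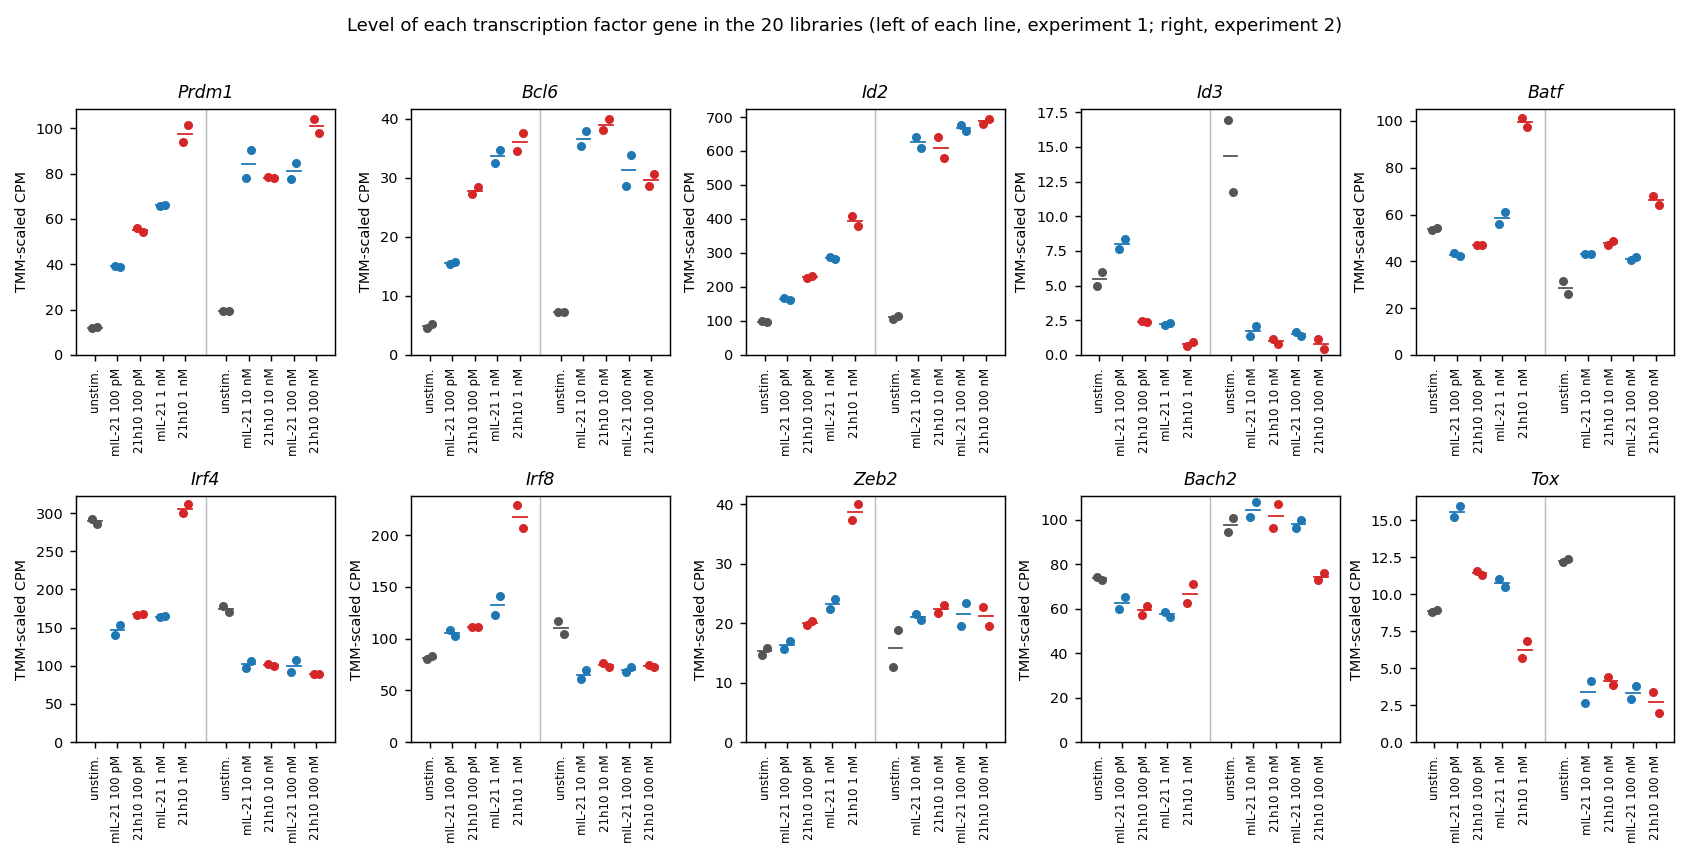
TMM-scaled CPM (y axis, linear from 0) of each of the 10 genes in every library, with 1 point per duplicate and a bar at the mean of the group (grey, unstimulated; blue, mIL-21; red, 21h10); experiment 1 is left of the grey line and experiment 2 right of it. Prdm1, Bcl6 and Id2 were above their unstimulated duplicates in every treated library, whereas Irf8 stood above them in experiment 1 and below them in experiment 2.

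Against unstimulated cells, all 8 cytokine treatments raised Prdm1, Bcl6 and Id2, and 7 of the 8 lowered Id3. Of the 10 genes, 9 changed with 100 pM mIL-21, 10 with 100 pM 21h10, 10 with 1 nM mIL-21 and 9 with 1 nM 21h10 (edgeR quasi-likelihood test, adjusted p under 0.05). The cytokine moved most of the transcriptome in experiment 1, since 77.7%, 81.6%, 80.1% and 80.3% of the 13974 genes tested were called in these comparisons, so the count is not a result about the 10 genes. Their median absolute log2 fold change was 0.65, 0.62, 0.76 and 1.38 in that order, beside 0.61, 0.67, 0.67 and 0.69 for all genes tested. In experiment 2, 9 of the 10 changed with 10 nM mIL-21, 9 with 10 nM 21h10, 9 with 100 nM mIL-21 and 10 with 100 nM 21h10, against 46.2%, 50.1%, 46.2% and 50.8% of the 13772 genes tested. The median absolute log2 fold change of the 10 was 1.18 to 1.61 over these 4 comparisons and that of all genes 0.39 to 0.42.

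**Figure D2:**
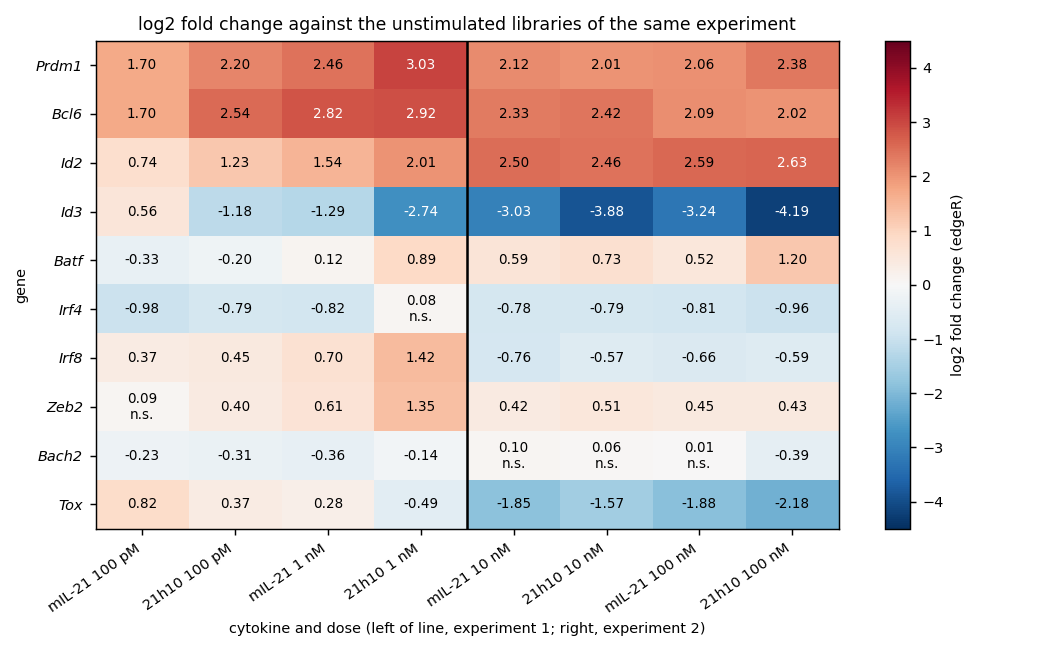
log2 fold change of the 10 genes (rows) in each treated group (columns) against the unstimulated libraries of the same experiment, from edgeR, on a colour scale from -4.5 to 4.5; n.s. marks an adjusted p of at least 0.05. Prdm1, Bcl6 and Id2 are red throughout (0.74 to 3.03), Id3 is blue in all columns but the first (0.56), Irf8 turns from red to blue between the experiments, and Tox does so within experiment 1.

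Prdm1, the gene of Blimp-1, rose in steps in experiment 1. It stood at 11.9 and 12.1 CPM without cytokine, 39.4 and 38.7 with 100 pM mIL-21, 55.9 and 54.4 with 100 pM 21h10, 65.8 and 66.2 with 1 nM mIL-21 and 94.0 and 101 with 1 nM 21h10. None of these pairs of duplicates overlapped, and each step of this order passed the test. The step from 100 pM 21h10 to 1 nM mIL-21 (adjusted p = 0.0221 in edgeR's test) was lost in 8 of the 10 fits that left out 1 library, with mapped reads as library size in place of TMM (0.0798), in the fit of the compared groups (0.0686) and with limma (0.194). Against unstimulated cells the log2 fold changes were 1.70 ± 0.059 (SE), 2.20 ± 0.057, 2.46 ± 0.058 and 3.03 ± 0.058 in that order, the last an 8.15-fold rise (adjusted p = 8.47e-18 in edgeR's quasi-likelihood test). In experiment 2 it stood at 19.5 and 19.2 CPM without cytokine, 77.9 and 90.6 with 10 nM mIL-21, 78.3 and 77.9 with 10 nM 21h10, 77.5 and 84.5 with 100 nM mIL-21 and 104 and 97.9 with 100 nM 21h10. The first 3 treated groups overlapped, and only the duplicates given 100 nM 21h10 stood above the rest. The rises there were 2.12 ± 0.096, 2.01 ± 0.097, 2.06 ± 0.096 and 2.38 ± 0.097 on the log2 scale.

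Bcl6, whose protein opposes Blimp-1, rose alongside it. In experiment 1 it stood at 4.49 and 5.16 CPM without cytokine, 15.3 and 15.8 with 100 pM mIL-21, 27.2 and 28.4 with 100 pM 21h10, 32.5 and 34.7 with 1 nM mIL-21 and 34.4 and 37.6 with 1 nM 21h10. Unlike Prdm1, the highest pair of groups overlapped, and the 2 uppermost steps of the order did not pass the test. The rise against unstimulated cells was 1.70 ± 0.087 on the log2 scale with 100 pM mIL-21 and 2.92 ± 0.082, or 7.55-fold, with 1 nM 21h10 (adjusted p = 1.20e-15 in edgeR's test). In experiment 2 it stood at 7.29 and 7.31 CPM without cytokine, 35.3 and 37.9 with 10 nM mIL-21, 38.0 and 39.9 with 10 nM 21h10, 28.6 and 33.8 with 100 nM mIL-21 and 28.6 and 30.6 with 100 nM 21h10. Both 100 nM groups lay below both 10 nM groups, and all of them lay above the unstimulated cells. On the scale per length, Prdm1 exceeded Bcl6 in all 20 libraries, with an RPKM ratio of 1.22 to 2.32. The ratio was 1.69 and 1.498 in the unstimulated libraries of experiment 1 and 1.74 and 1.72 with 1 nM 21h10, and the highest values, 2.32 and 2.04, belonged to 100 nM 21h10.

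Id2, the E protein inhibitor of effector cells, rose with every treatment and Id3, its memory-associated relative, fell in all but 1. Id2 stood at 99.4 and 96.7 CPM without cytokine in experiment 1, 167 and 161 with 100 pM mIL-21, 227 and 233 with 100 pM 21h10, 289 and 282 with 1 nM mIL-21 and 409 and 380 with 1 nM 21h10. The 5 groups were separate in the same order as for Prdm1. At the doses of experiment 2 it rose from 107 and 115 CPM to between 578 and 694 in the 8 treated libraries, which overlapped among the groups. The log2 fold change went from 0.74 ± 0.048 with 100 pM mIL-21 to 2.01 ± 0.049 with 1 nM 21h10, and in experiment 2 it was 2.46 to 2.63. Id3 stood at 4.95 and 6.00 CPM without cytokine in experiment 1, 7.63 and 8.38 with 100 pM mIL-21, 2.45 and 2.35 with 100 pM 21h10, 2.12 and 2.29 with 1 nM mIL-21 and 0.643 and 0.929 with 1 nM 21h10. At 100 pM the cytokines thus moved it to opposite sides of the unstimulated cells, with log2 fold changes of 0.56 ± 0.12 (adjusted p = 0.000360) for mIL-21 and -1.18 ± 0.13 (adjusted p = 1.92e-07) for 21h10 in edgeR's test. In experiment 2 Id3 fell from 16.9 and 11.8 CPM to between 0.409 and 2.11 in the treated libraries, a log2 fold change of -3.03 ± 0.31 with 10 nM mIL-21 and of -4.19 ± 0.35 with 100 nM 21h10. These low levels rest on few reads, 11 to 91 per treated library there and 23 and 47 with 1 nM 21h10. The RPKM ratio of Id2 to Id3 was 15.04 and 12.1 without cytokine in experiment 1, 16.4 and 14.4 with 100 pM mIL-21, 69.2 and 74.2 with 100 pM 21h10, 102 and 92.2 with 1 nM mIL-21 and 476 and 306 with 1 nM 21h10. In experiment 2 it was 4.73 and 7.32 without cytokine and 216 to 1272 with either cytokine.

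**Figure D3:**
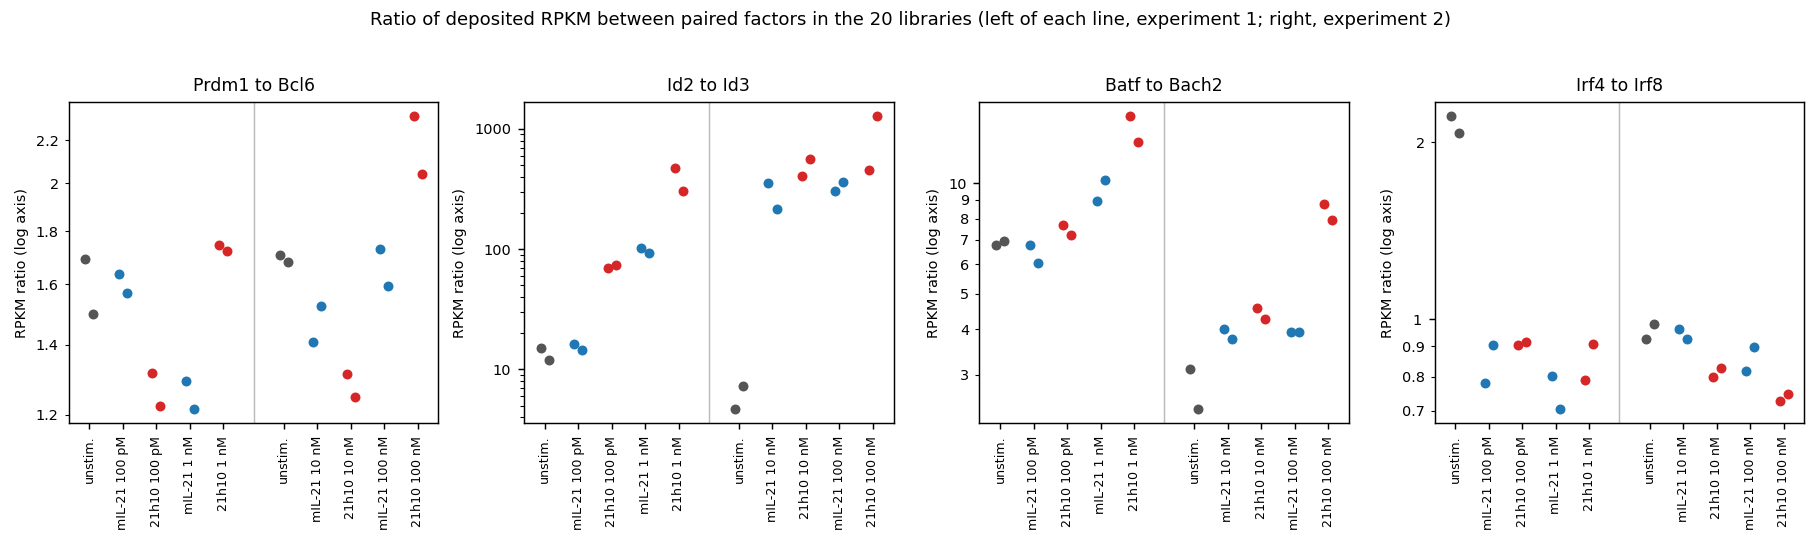
Ratio of the deposited RPKM values of paired factors (y axis, logarithmic) in each of the 20 libraries, 1 point per duplicate, with experiment 1 left of the grey line and experiment 2 right of it (grey, unstimulated; blue, mIL-21; red, 21h10). The Id2 to Id3 ratio spans 4.73 to 1272 and Prdm1 to Bcl6 only 1.22 to 2.32; the Irf4 to Irf8 ratio is above 2 only in the unstimulated libraries of experiment 1.

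Batf, the AP-1 factor, rose in experiment 2 with every treatment, but in experiment 1 it fell at 100 pM and rose at 1 nM. In experiment 1 it stood at 53.5 and 54.1 CPM without cytokine, 43.4 and 42.1 with 100 pM mIL-21, 46.8 and 46.9 with 100 pM 21h10, 55.9 and 61.1 with 1 nM mIL-21 and 101 and 97.4 with 1 nM 21h10. It was therefore lower than without cytokine in both 100 pM groups (-0.33 ± 0.054 and -0.20 ± 0.053 on the log2 scale) and 1.85-fold higher with 1 nM 21h10 (adjusted p = 3.48e-11 in edgeR's test). The small rise with 1 nM mIL-21, 0.12 ± 0.053 (adjusted p = 0.0448 in edgeR's test), was lost in 7 of the 10 fits that left out 1 library, most of all without duplicate 2 of 1 nM mIL-21 (adjusted p = 0.430). It was also lost with DESeq2, limma, no filter, mapped reads as library size or the replicate block (adjusted p of 0.0506 to 0.251). In experiment 2 Batf stood at 31.4 and 26.1 CPM without cytokine, 43.2 and 43.2 with 10 nM mIL-21, 46.8 and 48.7 with 10 nM 21h10, 40.4 and 41.8 with 100 nM mIL-21 and 68.1 and 64.2 with 100 nM 21h10. All 4 treated groups lay above the unstimulated cells there, with the duplicates of 100 nM 21h10 highest (log2 fold change 1.20 ± 0.099).

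Irf4, a factor induced by T cell receptor signals, fell with 7 of the 8 treatments. It stood at 293 and 286 CPM without cytokine in experiment 1, 140 and 153 with 100 pM mIL-21, 167 and 168 with 100 pM 21h10, 164 and 165 with 1 nM mIL-21 and 301 and 311 with 1 nM 21h10. With 1 nM 21h10 its level was near that of unstimulated cells, a log2 difference of 0.08 with a 95% interval of -0.02 to 0.18 (adjusted p = 0.128 in edgeR's test), which became a call with DESeq2 (adjusted p = 0.0280) and in the fit of the compared groups (0.0220). At the doses of experiment 2 it stood at 179 and 170 CPM without cytokine and 89.4 to 107 in the treated libraries, with log2 fold changes of -0.78 to -0.96. Irf8, its relative, rose in experiment 1 from 80.0 and 83.2 CPM without cytokine to 108 and 102 with 100 pM mIL-21, 111 and 111 with 100 pM 21h10, 123 and 141.2 with 1 nM mIL-21 and 230 and 206.6 with 1 nM 21h10. The duplicates given 1 nM 21h10 stood apart from all others (log2 fold change 1.42 ± 0.064). In experiment 2 Irf8 went the other way, from 117 and 105 CPM to between 61.0 and 76.8 in the treated libraries (-0.76 ± 0.091 with 10 nM mIL-21). The RPKM ratio of Irf4 to Irf8 was 2.21 and 2.07 in the unstimulated libraries of experiment 1 but 0.926 and 0.982 in those of experiment 2, so the unstimulated cells of the experiments differed in this pair, and it was 0.706 to 0.962 in all 16 treated libraries.

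Zeb2, the terminal effector factor, rose with dose in experiment 1, from 14.7 and 15.8 CPM without cytokine and 15.6 and 16.9 with 100 pM mIL-21 to 19.7 and 20.3 with 100 pM 21h10, 22.4 and 24.1 with 1 nM mIL-21 and 37.4 and 40.0 with 1 nM 21h10. The lowest pair of groups overlapped (log2 difference 0.09, 95% interval -0.06 to 0.25), and 1 nM 21h10 raised it 2.55-fold (adjusted p = 5.62e-12 in edgeR's test). In experiment 2 it stood at 12.7 and 18.8 CPM without cytokine and at 19.5 to 23.5 with either cytokine. The 4 rises there, 0.42 to 0.51 on the log2 scale, passed the test in the fit of all 10 libraries but were lost without duplicate 1 of the unstimulated cells, with adjusted p of 0.406, 0.179, 0.325 and 0.385 in edgeR's test for 10 nM mIL-21, 10 nM 21h10, 100 nM mIL-21 and 100 nM 21h10. With limma, on RPKM, or with mapped reads as library size none of the 4 passed. In the fit of the compared groups 1 did.

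Bach2, the restrainer of effector genes, moved little. It stood at 74.3 and 73.1 CPM without cytokine in experiment 1 and at 56.4 to 71.0 in the treated libraries, with log2 fold changes of -0.14 to -0.36. That for 1 nM 21h10, -0.14 ± 0.062 (adjusted p = 0.0482 in edgeR's test), was lost in 8 of the 10 fits that left out 1 library, with DESeq2 (0.186) and in the fit of the compared groups (0.264). The one for 100 pM mIL-21, -0.23 ± 0.062, was lost without duplicate 1 of that group (adjusted p = 0.0575 in edgeR's test) and with limma (0.0947). At the doses of experiment 2 it stood at 94.7 and 101 CPM without cytokine and at 96.3 to 108 in the 6 libraries given 10 nM mIL-21, 10 nM 21h10 or 100 nM mIL-21, and fell to 73.0 and 76.1 with 100 nM 21h10. That fall was the only one of the 4 to pass the test, -0.39 ± 0.085 on the log2 scale (adjusted p = 0.00130 in edgeR's test). The other 3 differences had 95% intervals that together ran from -0.17 to 0.28. Without stated strand, reads of Bach2, Tox and Zeb2 cannot be told from those of antisense genes that share 5.40%, 3.42% and 3.27% of their exonic bases. Bach2 also carries short stretches of at least 95% identity with other genes.

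Tox, a factor of exhausted T cells, rose with 3 of the 4 treatments of experiment 1 and fell with the other 5. In experiment 1 it stood at 8.80 and 8.90 CPM without cytokine, 15.2 and 15.9 with 100 pM mIL-21, 11.6 and 11.3 with 100 pM 21h10, 11.02 and 10.5 with 1 nM mIL-21 and 5.70 and 6.80 with 1 nM 21h10. The highest level thus belonged to the lowest dose of the native cytokine and the lowest to the higher dose of 21h10, with log2 fold changes of 0.82 ± 0.082 and -0.49 ± 0.092 (adjusted p = 6.41e-08 and 0.000110 in edgeR's test). In experiment 2 it fell from 12.2 and 12.4 CPM to between 1.97 and 4.38 in the treated libraries, by log2 fold changes of -1.57 to -2.18. Id3 was likewise above the unstimulated level with 100 pM mIL-21, and below it with all 7 other treatments.

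At 100 pM, 21h10 differed from mIL-21 in 7 of the 10 genes, against 38.6% of all genes tested. Prdm1 was higher with 21h10 by 0.50 ± 0.053 on the log2 scale, Bcl6 by 0.84 ± 0.074, Id2 by 0.49 ± 0.048, Zeb2 by 0.30 ± 0.073 and Irf4 by 0.19 ± 0.048. Id3 differed by -1.74 ± 0.13 and Tox by -0.45 ± 0.080. The calls for Irf4 and Zeb2 were lost without duplicate 1 of 100 pM mIL-21 (adjusted p = 0.133 and 0.0736 in edgeR's test), with mapped reads as library size (0.225 and 0.0520) and with limma (0.215 and 0.151). The difference of Irf4 shrank to 0.09 with either of these settings. Batf, Irf8 and Bach2 did not pass, with 95% intervals of 0.02 to 0.25, -0.05 to 0.21 and -0.21 to 0.05. Batf (adjusted p = 0.0131) and Irf8 (0.0499) passed in the fit of the compared groups. Batf also passed without any 1 library of either 1 nM group (0.0385 to 0.0392), and Bach2 with mapped reads as library size (0.0395).

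At 1 nM, 9 of the 10 genes differed between the cytokines, against 37.7% of all genes tested. With 21h10, Irf4 was higher by 0.90 ± 0.049, Batf by 0.76 ± 0.053, Zeb2 by 0.74 ± 0.070, Irf8 by 0.72 ± 0.063, Prdm1 by 0.57 ± 0.052, Id2 by 0.46 ± 0.047 and Bach2 by 0.22 ± 0.063. Id3 differed by -1.45 ± 0.22 and Tox by -0.77 ± 0.095. The call for Bach2 was lost without duplicate 2 of either group (adjusted p = 0.0652 and 0.160 in edgeR's test), with mapped reads as library size (0.0619) and with limma (0.131). Bcl6 did not pass, at 0.10 with a 95% interval of -0.05 to 0.25. The median absolute difference was 0.73 for the 10 genes and 0.20 for all genes tested.

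The difference between the cytokines itself depended on dose for 6 of the 10 genes, against 18.4% of all genes tested. From 100 pM to 1 nM the difference, 21h10 minus mIL-21, grew by 0.70 ± 0.068 for Irf4, 0.64 ± 0.089 for Irf8, 0.63 ± 0.076 for Batf, 0.44 ± 0.10 for Zeb2 and 0.30 ± 0.089 for Bach2, and changed by -0.74 ± 0.10 for Bcl6. The change for Bach2 was lost without duplicate 2 of 1 nM mIL-21, 100 pM mIL-21 or 1 nM 21h10 or duplicate 1 of 100 pM 21h10 (adjusted p of 0.0701 to 0.154 in edgeR's test) and with limma (0.0572). For Prdm1 the change was 0.07 with a 95% interval of -0.09 to 0.23, and for Id2 it was -0.02 with an interval of -0.16 to 0.12. Tox did not pass either, at -0.32 with an interval of -0.58 to -0.06 (adjusted p = 0.0885 in edgeR's test). Without duplicate 2 of 1 nM 21h10 its change was -0.47. The interval was wide for Id3, at 0.29 (-0.27 to 0.85). The step from 100 pM to 1 nM changed 9 of the 10 genes with mIL-21 (34.5% of all genes tested) and all 10 with 21h10 (39.2%). With mIL-21 Bcl6 rose by 1.11 and Batf by 0.45 over this step, whereas with 21h10 Bcl6 rose by 0.37 and Batf by 1.08. The rise of Irf4 with mIL-21, 0.17, was lost without duplicate 1 of 100 pM mIL-21 (adjusted p = 0.263 in edgeR's test). It shrank to 0.05 with mapped reads as library size (0.534) and with limma (0.485). The rise of Bach2 with 21h10, also 0.17, was lost without duplicate 2 of 1 nM 21h10 (adjusted p = 0.370 in edgeR's test) or 3 other libraries, with mapped reads as library size (0.217), with limma (0.297) and in the fit of the compared groups (0.0698). Bach2 did not pass with mIL-21, but changed by -0.24 with mapped reads as library size (adjusted p = 0.00801) and by -0.20 with limma (0.0324).

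**Figure D4:**
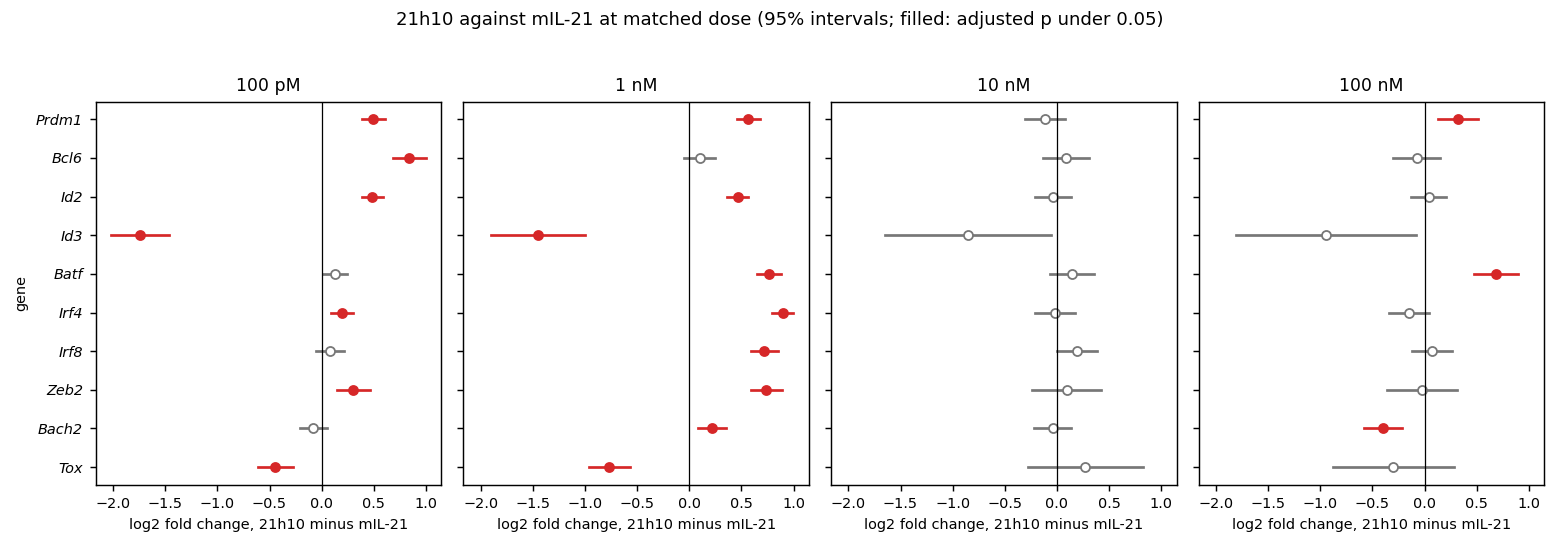
log2 fold change of 21h10 minus mIL-21 at each matched dose (x axis) for the 10 genes (y axis), with 95% intervals from edgeR; filled red points have an adjusted p under 0.05. Red points number 7 at 100 pM, 9 at 1 nM, 0 at 10 nM and 3 at 100 nM. Of all genes tested, 38.6%, 37.7%, 0.00726% and 8.53% passed in that order. The doses of 100 pM and 1 nM belong to experiment 1, where the spread was lower and smaller differences could be called. Id3 lies left of 0 in every panel.

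The lower dose of 21h10 was also set against the higher dose of mIL-21. Between 100 pM 21h10 and 1 nM mIL-21, 3 of the 10 genes differed, against 0.737% of all genes tested. All 3 were lower with 21h10, with log2 differences of -0.26 ± 0.052 for Prdm1, -0.32 ± 0.054 for Batf and -0.31 ± 0.047 for Id2 (adjusted p = 0.0221, 0.00489 and 0.00187 in edgeR's test). The count went from 3 to 0 without duplicate 1 of 100 pM 21h10, to 1 without duplicate 2 of that group and to 5 without either duplicate of 1 nM 21h10, where Bcl6 and Irf8 joined. With limma the calls for both Prdm1 and Id2 were lost (adjusted p = 0.194 and 0.0647). Bcl6 and Irf8 differed by -0.28 (95% interval -0.42 to -0.13) and -0.25 (-0.38 to -0.12) but did not pass after adjustment. Without the filter both did (adjusted p = 0.0464 and 0.00821), as did Irf8 with DESeq2 (0.0437). Zeb2 differed by -0.21 (95% interval -0.36 to -0.06, adjusted p = 0.283 in edgeR's test). Irf4, Id3, Bach2 and Tox had intervals of -0.07 to 0.13, -0.23 to 0.45, -0.09 to 0.18 and -0.09 to 0.27. The opposite pair, 1 nM 21h10 and 100 pM mIL-21, differed in 9 of the 10 genes (59.5% of all genes tested), with Id3 furthest apart (-3.30) and Bach2 not past the test (0.10, 95% interval -0.04 to 0.23, although it passed without duplicate 1 of 1 nM 21h10, adjusted p = 0.0155).

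At 10 nM none of the 10 genes differed between the cytokines in edgeR's test, against 0.00726% of all genes tested, which is 1 gene. At an unadjusted p under 0.05 there were 1 of the 10, against 1207 of 13772 genes tested, and DESeq2 and limma each called 0 of the 10. The 95% intervals were -0.30 to 0.08 for Prdm1, -0.21 to 0.13 for Id2 and -0.22 to 0.14 for Bach2. That of Prdm1 includes -0.26, the difference called between 100 pM 21h10 and 1 nM mIL-21, so equal levels are not shown. The interval was wide for Id3 (-1.65 to -0.05), which rests on 24 to 91 reads per library. At 100 nM, 3 of the 10 differed, against 8.53% of all genes tested. With 21h10 Batf was higher by 0.69 ± 0.098 and Prdm1 by 0.32 ± 0.090, and Bach2 differed by -0.40 ± 0.085 (adjusted p = 0.000338, 0.0398 and 0.00828 in edgeR's test). Leaving out any 1 of the 4 libraries of these groups lost both Prdm1 (adjusted p of 0.0911 to 0.349) and Bach2 (0.0502 to 0.0778) in edgeR's test and left Batf alone. Prdm1 was lost also with mapped reads as library size (0.156) and with limma (0.194). Bcl6 differed by -0.08 (95% interval -0.30 to 0.15), Id2 by 0.04 (-0.13 to 0.21) and Id3 by -0.95 (-1.81 to -0.09), the last of which passed without the filter (adjusted p = 0.0225).

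When mIL-21 went from 10 nM to 100 nM, none of the 10 genes changed in edgeR's test (0% of all genes tested, with 361 of 13772 at an unadjusted p under 0.05). Of the 10, 1 had an unadjusted p under 0.05, and DESeq2 and limma called 0. Over all genes DESeq2 called 0 and limma 0. The same step of 21h10 changed 4 of the 10 (5.33% of all genes tested). Prdm1 rose by 0.37 ± 0.090 and Batf by 0.47 ± 0.097, while Bcl6 fell by 0.40 ± 0.11 and Bach2 fell by 0.45 ± 0.085 on the log2 scale. The 4 calls became 1 without duplicate 1 of 10 nM 21h10 or duplicate 2 of 100 nM 21h10 and 0 without duplicate 2 of 10 nM 21h10 or duplicate 1 of 100 nM 21h10. With limma Prdm1, Batf and Bcl6 were lost (adjusted p = 0.130, 0.0578 and 0.0538), and with mapped reads as library size Prdm1 was (0.0772). Between 10 nM 21h10 and 100 nM mIL-21 none of the 10 differed (0.00726% of all genes tested), and 0 did with DESeq2 or limma. At an unadjusted p under 0.05 there were 2 of the 10, against 538 of 13772 genes tested. Between 100 nM 21h10 and 10 nM mIL-21, 2 of the 10 differed (18.1%), Batf by 0.62 and Bach2 by -0.49. Without either unstimulated library Prdm1, Bcl6 and Id3 joined them. Prdm1 also passed with DESeq2, in the fit of the compared groups and with the replicate block (adjusted p = 0.0437, 0.0247 and 0.0487). Whether the difference between the cytokines changed from 10 nM to 100 nM was tested too. None of the 10 passed in edgeR's test (0.922% of all genes tested). At an unadjusted p under 0.05 there were 3 of the 10, against 1096 of 13772 genes tested. DESeq2 called 1 of the 10 and limma 0. The change nearest to the threshold was that of Batf, 0.54 ± 0.14 (adjusted p = 0.0929 in edgeR's test, 0.0146 to 0.0148 without either unstimulated library, and 0.0210 with DESeq2).

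The mean response of the 4 treated groups differed between the experiments for 8 of the 10 genes, against 64.7% of 14530 genes tested in a fit of all 20 libraries, a share close to that of the genes at large. Dose and experiment changed together, so they cannot be told apart. Irf8 rose by 0.74 ± 0.066 on the log2 scale in experiment 1 and changed by -0.70 ± 0.061 in experiment 2. Tox changed by 0.25 ± 0.13, with a 95% interval of -0.02 to 0.51 that includes 0, and by -1.92 ± 0.13. Id3 changed by -1.16 ± 0.17 and -3.64 ± 0.17. Id2 rose by 1.39 ± 0.056 and 2.49 ± 0.061, and Batf by 0.13 ± 0.059 and 0.71 ± 0.064. Irf4 went from -0.62 ± 0.052 to -0.89 ± 0.052. Prdm1 and Bcl6 rose slightly less in experiment 2 (2.35 ± 0.070 against 2.09 ± 0.069, and 2.50 ± 0.087 against 2.16 ± 0.087), and both of these differences were lost without duplicate 1 of the unstimulated cells of experiment 1 (adjusted p = 0.0585 and 0.171 in edgeR's test). Zeb2 and Bach2 did not pass, with 95% intervals of the difference of -0.52 to 0.09 and -0.03 to 0.32, although Zeb2 passed without duplicate 1 of the unstimulated cells of experiment 2 (adjusted p = 0.00206), with mapped reads as library size (0.0222) and with limma (0.0360).

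**Figure D5:**
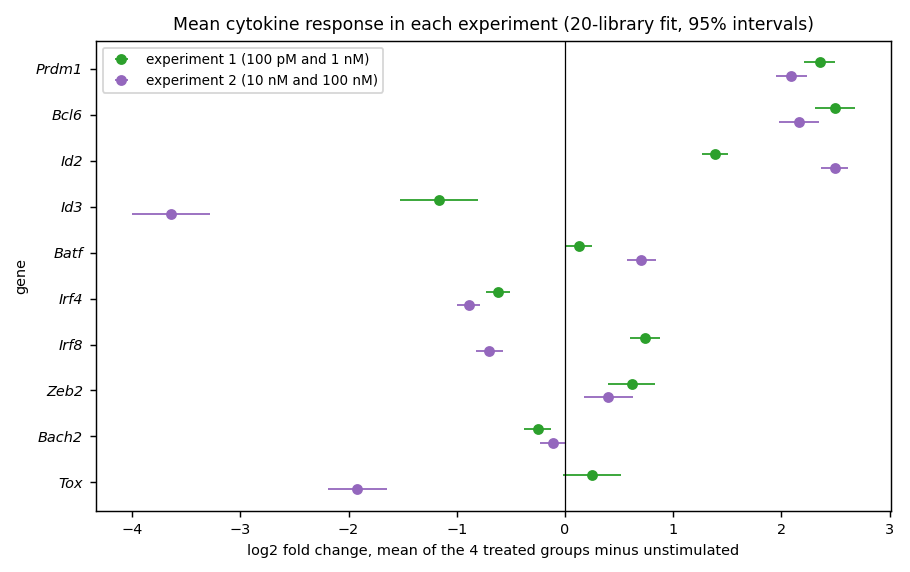
Mean log2 fold change with cytokine, over the 4 treated groups, relative to unstimulated cells (x axis) for the 10 genes (y axis) in experiment 1 (green, 100 pM and 1 nM) and experiment 2 (purple, 10 nM and 100 nM), with 95% intervals from the fit of all 20 libraries. Irf8 lies at 0.74 and -0.70, on opposite sides of 0. Tox lies at 0.25, with an interval that includes 0 (-0.02 to 0.51), and at -1.92. Prdm1 and Bcl6 lie between 2.09 and 2.50 in both.

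Across the 10 group means, each experiment centred on its own mean, Prdm1 correlated with Bcl6 at r = 0.974 and with Id2 at r = 0.948, and Id2 with Id3 at r = -0.924. Batf correlated with Id3 at r = -0.880, Id3 with Tox at r = 0.887 and Prdm1 with Irf8 at only r = 0.277. These values describe shared patterns over groups that include the same unstimulated libraries and carry no p. Among 2496 genes tested in both experiments that ranged over at least 1 log2 unit in each, those most like Prdm1 included Igsf10 (r = 0.997), Flot2 (0.994), Lgals3 (0.993) and Myadm (0.993), and those most like Bcl6 were Filip1 (0.995), Bcl3 (0.994), Maml3 (0.994), Mctp2 (0.993) and Frem2 (0.993). Bcl3 is a cofactor of NF-kB.

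Genes around these factors were followed in other lists. Of 16 relatives of the 10 genes, 14 were tested with 1 nM 21h10 and 12 changed, with Tox2 (2.59 ± 0.67 on the log2 scale) and Tox3 (1.95 ± 0.81) rising most and Irf5 (-1.05 ± 0.079) and Irf7 (-0.93 ± 0.075) falling most. Tox2 and Tox3 rest on few reads, 4 and 2 without cytokine against 11 and 11 for Tox2 and 6 and 0 against 6 and 8 for Tox3. At 100 nM, 10 of 12 changed, led by Bach1 (0.85 ± 0.12), Zeb1 (0.65 ± 0.090), Bcl6b (-2.42 ± 0.85) and Irf5 (-2.02 ± 0.19), with Bcl6b at 28 and 32 reads without cytokine and 3 and 5 with it. Of 11 DNA-binding partners, all 10 tested changed with 1 nM 21h10, among them Maff (5.29 ± 0.15), Jun (2.12 ± 0.067), Spib (-1.52 ± 0.30) and Mafk (-1.22 ± 0.068). At 100 nM, 7 of 10 changed, and Jun, a partner of Batf, rose by 2.33 ± 0.093 and Junb by 0.99 ± 0.098, while the E proteins Tcf3 and Tcf12, which Id2 and Id3 bind, changed by -0.58 ± 0.095 and -0.55 ± 0.075.

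Of 13 effector genes, 11 changed with 1 nM 21h10 and 11 of the 12 tested with 100 nM 21h10. The protease gene Gzma rose most at both (5.30 ± 0.058 and 6.64 ± 0.12), next to S1pr5, a receptor of terminal effector cells that went from 2 and 0 reads to 15 and 20, at 1 nM and Prf1 (4.23 ± 0.11), which encodes perforin, at 100 nM, whereas Ccl5 (-0.45 ± 0.061) and Klrk1 (-0.79 ± 0.092) fell. Of 13 memory and resting genes, 12 changed at each dose in both directions. With 1 nM 21h10 Foxo1 (1.24 ± 0.051) and S1pr1 (1.23 ± 0.050) rose and Slamf6 (-1.83 ± 0.094) and Eomes (-1.14 ± 0.056) fell, and with 100 nM 21h10 Eomes (2.03 ± 0.10) and Satb1 (1.80 ± 0.079) rose and Cxcr5 (-2.51 ± 0.17) and Myb (-1.30 ± 0.098) fell. Of 12 IL-21 signal genes, all 12 changed at 1 nM and 11 at 100 nM. Socs3, a STAT3 target that curbs cytokine signalling, rose most at both (6.61 ± 0.076 and 4.46 ± 0.088), followed by Pim1 (3.20 ± 0.055 and 2.65 ± 0.087). These counts stand beside the 80.3% and 50.8% of all genes tested given above.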

How the data were processed

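RNA of 20 libraries was sequenced, and the authors mapped the reads to mm10 (GRCm38) with TopHat2 2.0.11. Per the file headers, each deposited count is the raw number of reads on a RefSeq transcript, and the deposited RPKM was made by the authors from that count, the transcript length and the mapped reads. The counting tool's use of strand is not given in the sources used here. Groups, doses and duplicates were taken from the sample labels. Genes with a count of at least 10 in enough libraries and 15 in total (edgeR's filterByExpr) were kept, counts were scaled by TMM and all 10 libraries of an experiment were fitted together, with group as the factor, by edgeR 4.0.16 (glmQLFit and glmQLFTest, in R 4.3.3). p-values were adjusted over all genes tested by the method of Benjamini and Hochberg, with a threshold of 0.05. Errors after ± are approximate standard errors, the absolute log2 fold change divided by the square root of the F statistic of edgeR's test. The 95% intervals of the contrasts were built from them. Both come from duplicates (n = 2 per group) that share the spread of the whole fit. The steps were tested on simulated data. The mean responses of the experiments were compared in a fit of all 20 libraries. Alternatives were DESeq2 1.42.0, tests without the low-count filter, limma 3.58.1 on log2(RPKM + 1) where 2 or more libraries reached an RPKM of 1, a fit limited to the groups compared, a replicate block, the omission of every library in turn, the most-read transcript, and library sizes taken from mapped reads without TMM. Overlapping genes were read from GENCODE M21 and copies of at least 95% identity over 100 bases from BLAST+ 2.17.0, and 5 motifs were searched on both strands.

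The 10 genes and the other lists were chosen with earlier results of these data known. Named were the 10 genes in every comparison, from each other list the 2 largest rises and the 2 largest falls past the threshold with 21h10 at 1 nM and at 100 nM, and the 5 genes whose group means of log2 CPM (prior count 2) were most like those of Prdm1 and of Bcl6. Some genes that this rule names are not reported here.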

Additional observations from a re-analysis of the deposited data

Results flagged for a closer look

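In experiment 1 the difference between 21h10 and mIL-21 changed from 100 pM to 1 nM for 6 of the 10 genes by the test of that change itself. It was -0.74 for Bcl6, 0.63 for Batf, 0.70 for Irf4, 0.64 for Irf8, 0.44 for Zeb2 and 0.30 for Bach2 on the log2 scale, the last lost in 4 of the 10 fits that left out 1 library. Bcl6 thus differed between the cytokines at the lower dose and the other 5 more at the higher.

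The mean cytokine response differed between the experiments, again by a direct test, by -0.26 for Prdm1, -0.34 for Bcl6, 0.58 for Batf, -0.27 for Irf4, -1.44 for Irf8, 1.11 for Id2, -2.48 for Id3 and -2.17 for Tox (experiment 2 minus experiment 1, log2 scale). The differences of Prdm1 and Bcl6 were lost without duplicate 1 of the unstimulated cells of experiment 1 (adjusted p = 0.0585 and 0.171 in edgeR's test). The doses of the 2 experiments did not overlap, so dose and experiment cannot be told apart, and the unstimulated cells of the experiments also differed, with an RPKM ratio of Irf4 to Irf8 of 2.21 and 2.07 in experiment 1 and 0.926 and 0.982 in experiment 2.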

How the results depend on the processing

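The call counts of the 8 comparisons with unstimulated cells, of both dose steps of experiment 1 and of the cytokines at 100 pM, 1 nM and 10 nM stayed within 1.5 times under every alternative run, and DESeq2, no filter and the most-read transcript reversed no direction among the results given. For 21h10 at 100 pM against mIL-21 at 1 nM the 3 genes became 5 without the filter and 1 with limma. For 21h10 at 100 nM against 10 nM the 4 genes became 1 with limma. For 21h10 at 100 nM against mIL-21 at 10 nM the 2 genes became 4 without the filter, with DESeq2 or in the fit of the compared groups, and 5 with mapped reads as library size or the replicate block. For the change between 10 nM and 100 nM in the difference between the cytokines, DESeq2 called 1 gene. Leaving out 1 library gave 0 to 5, 0 to 4, 2 to 5 and 0 to 1 genes in these 4 comparisons and 1 to 3 for the cytokines at 100 nM.

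Correlations of the deviations of same-numbered duplicates were -0.062 to 0.029 in experiment 1 and -0.167 to 0.227 in experiment 2. Those over 0.1 were the 3 among the unstimulated and both 100 nM groups (0.227, 0.172 and 0.126), and since the other pairs of groups did not reach this level the numbers were not taken to pair the samples. Besides the count above, the replicate block lost the call of Batf with mIL-21 at 1 nM (0.12, adjusted p = 0.0598 in edgeR's test).

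Without TMM and with limma, respectively, 3 differences that had not passed the test turned sign, that of Irf4 with 21h10 at 1 nM (-0.0019 and -0.0019), of Irf8 between the cytokines at 100 pM (-0.023 and -0.022) and of Bach2 between 21h10 at 1 nM and mIL-21 at 100 pM (-0.067 and -0.061). Leaving out 1 library gave values on both sides of 0 for the difference between the cytokines of Prdm1 (-0.22 to 2.1e-05) and Tox (-0.0038 to 0.63) at 10 nM and of Bcl6 (-0.20 to 0.041) and Tox (-0.77 to 0.029) at 100 nM, and for Zeb2 between the experiments (-0.48 to 0.080). The causes were not tested. Of the 10 genes, Id3 and Tox rest on the fewest reads, 11 to 91 and 53 to 178 per treated library of experiment 2.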
